A study of Homo sapiens with 24 samples.

Results

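The genes described here were 7 serine/arginine-rich (SR) splicing factors, SRSF1, SRSF2, SRSF3, SRSF5, SRSF6, SRSF7 and SRSF11, and 3 CDC2-like kinases, CLK1, CLK2 and CLK4. They were taken by symbol from the deposited count tables, and all 10 were found among the 60658 genes listed. They were grouped for messages that hold regulated retained introns or poison exons, and the rule used no measured value.

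SR proteins bind exonic enhancers in pre-messenger RNA through an RNA recognition motif and recruit the spliceosome through a domain rich in arginine and serine. CLK kinases phosphorylate that domain and release SR proteins from nuclear speckles, where they are stored. Many of these genes limit their own output: a poison exon brings a premature stop codon into the message, which is then degraded by nonsense-mediated decay (NMD). Transcripts of CLK1 and CLK4 are also known to wait in the nucleus with introns retained, polyadenylated but not translated, and to be spliced to the mature form on demand.

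The study asked whether 4 ways of depleting the circular RNA ciRS-7 (CDR1as) change messenger RNAs beyond the target. Cells labelled SH-SY5Y, a neuroblastoma line, were transfected, RNA was harvested after 48 h, and non-stranded poly(A) libraries were read as pairs of 100 nt. Each setup had 3 knockdown (KD) and 3 non-targeting control (NTC) libraries, which gave 8 groups and 24 libraries. The agoshRNA groups received a vector for an Argonaute-processed hairpin, with no CasRx plasmid named. The gRNA and pre-gRNA groups received a plasmid for CasRx, an RNA-guided RNA nuclease, fused to GFP, plus a plasmid for the mature or the precursor guide, targeting or non-targeting. For the syn-gRNA groups the labels give a guide that was chemically synthesised, and they do not describe how it or CasRx was delivered. Within each group the count columns carry the letters A, B and C. What a letter stands for is not stated and it was not linked to the replicate numbers of the labels, nor do the labels say whether replicates were separate cultures, so p-values measure the spread between these libraries.

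Total counts per library ranged from 10994974 to 16233777, and mitochondrial genes took 3.36 to 5.13% of them. The row of CDR1-AS, at the targeted locus, held 0 to 15 counts in the 12 KD libraries and 2 to 16 in the 12 NTC libraries, and counts of polyadenylated RNA do not separate the circle from linear transcripts, so the depletion was not checked here. Of 8 genes of noradrenergic neuroblastoma, PHOX2A, DBH, TH, STMN2 and ELAVL4 had at most 5 counts in any library, while GATA2, CHRNA3 and GAP43 averaged 35.7, 13.0 and 1.21 CPM (counts scaled to a library total of 1000000). Of 5 genes of a kidney-lineage line, HOXA9, HOXA10, HOXA11 and PAX2 averaged 98.2, 85.05, 43.6 and 10.97 CPM, and PAX8 had at most 1 count in any library. The cells are therefore called by their label only. With bulk RNA, fewer cells of a type and less RNA per cell cannot be told apart.

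The annotation of GENCODE release 29 (GRCh38) lists an NMD transcript for 9 of the 10 genes, against 44.05% of 11588 protein-coding genes whose mean count reached 50. It lists a retained-intron transcript for 7 of the 10, against 58.3% of those genes. CLK2 has neither in that annotation. The counts are sums per gene, so productive, poisoned and intron-retaining forms could not be separated.

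An exon that is skipped in part of the annotated transcripts is shown for each CLK gene. Whether this exon has a part in the counts below was not tested. In CLK1 it has 91 bases at chr2:200860125-200860215, minus strand, GRCh38, and the transcript that skips it is annotated as an NMD target. In CLK4 the matching exon has 91 bases at chr5:178617344-178617434, minus strand, and 1 of the 2 transcripts that skip it is an NMD target. One retained-intron transcript keeps the introns on both sides of the exon in CLK1, and 1 does so in CLK4. The CLK2 exon has 88 bases at chr1:155268708-155268795, minus strand, and no transcript that skips it is annotated as an NMD target. Capitals mark the bases of CLK1 that differ from CLK4, the bases of CLK4 that differ from CLK1, and the bases of CLK2 that differ from the last 88 bases of the CLK1 exon.
CLK1: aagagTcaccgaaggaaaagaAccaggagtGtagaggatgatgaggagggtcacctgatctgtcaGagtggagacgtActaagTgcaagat
CLK4: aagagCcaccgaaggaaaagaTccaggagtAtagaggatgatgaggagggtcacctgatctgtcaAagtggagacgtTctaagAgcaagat
CLK2: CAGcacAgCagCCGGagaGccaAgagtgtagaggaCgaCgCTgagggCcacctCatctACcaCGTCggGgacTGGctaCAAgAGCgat
The exons of CLK1 and CLK4 were identical at 85 of 91 bases (93.4%), and those of CLK1 and CLK2 at 55 of 88 bases (62.5%).

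Poison exons of 4 SR genes are shown up to the premature stop codon, in capitals. They are in NMD transcripts of GENCODE release 29 and are skipped in coding transcripts. Among skipped exons of that annotation, none with a placed stop codon was found for SRSF1, SRSF2 or SRSF5. The SRSF3 exon lies at chr6:36599821-36600276, plus strand, the SRSF6 exon at chr20:43459153-43459420, plus strand, the SRSF7 exon at chr2:38748898-38749346, minus strand, and the SRSF11 exon at chr1:70231859-70231975, plus strand, all on GRCh38.
SRSF3: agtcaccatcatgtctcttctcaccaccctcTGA
SRSF6: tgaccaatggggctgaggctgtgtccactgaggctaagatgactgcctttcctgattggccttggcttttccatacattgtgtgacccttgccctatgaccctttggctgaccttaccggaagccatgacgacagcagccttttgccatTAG
SRSF7: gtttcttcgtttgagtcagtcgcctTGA
SRSF11: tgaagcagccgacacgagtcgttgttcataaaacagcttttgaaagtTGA
The whole exons have 456, 268, 449 and 117 bases in that order, and the stop codon is reached after 34, 152, 28 and 50 bases of the exon, stop included.

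All 10 genes were expressed in every library, and SRSF1 stood highest. Levels between genes are given as CPM per kilobase of the exon length in the deposited tables, as mean ± SD over the 24 libraries. SRSF1, the founding SR protein, at chr17:56080721-56084707 (hg19, minus strand), averaged 145.1 ± 74.0 CPM per kb. SRSF2, also called SC35 and a marker of nuclear speckles, at chr17:74730197-74733456 (hg19, minus strand), averaged 91.04 ± 50.4 CPM per kb. SRSF5, at chr14:70193617-70238722 (hg19, plus strand), averaged 69.5 ± 28.5 CPM per kb. By this measure these were the 3 highest members, and SRSF1 was above SRSF2 in 21 of 24 libraries and SRSF2 above SRSF5 in 17 of 24. The order depends on that length. In mean CPM SRSF11 (380.2) stood above SRSF5 (372.0) and SRSF2 (274.7).

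The middle of the order held 5 genes whose levels ran into each other. SRSF11, whose product is an SR-related protein at the 3′ splice site, at chr1:70671365-70718735 (hg19, plus strand), averaged 44.9 ± 21.1 CPM per kb. SRSF7, whose product has a zinc knuckle beside its RNA recognition motif, at chr2:38970741-38978636 (hg19, minus strand), averaged 38.0 ± 13.4. CLK2, at chr1:155232659-155248282 (hg19, minus strand), averaged 29.7 ± 6.23. SRSF3, the smallest SR protein, and SRSF6 followed. SRSF3, at chr6:36562130-36573377 (hg19, plus strand), averaged 28.7 ± 9.91 CPM per kb, and SRSF6, at chr20:42086568-42092887 (hg19, plus strand), averaged 27.3 ± 12.7 CPM per kb. Neighbours in this stretch changed places often, with SRSF11 above SRSF7 in 15 libraries, CLK2 above SRSF3 in 13 and SRSF3 above SRSF6 in 12 of 24. The other kinases were lowest in the order. CLK1, at chr2:201717732-201729467 (hg19, minus strand), averaged 16.2 ± 7.64 CPM per kb, and CLK4, at chr5:178029665-178057616 (hg19, minus strand), averaged 3.60 ± 1.58. CLK1 was above CLK4 in 24 of 24 libraries.

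Apart from CLK2, each gene had a wide range over the libraries. The highest library exceeded the lowest by 8.12-fold for SRSF11, 7.58-fold for SRSF1, 7.47-fold for CLK1, 6.12-fold for SRSF6, 6.05-fold for CLK4 and 5.98-fold for SRSF5, against 2.09-fold for CLK2. The SD of log2 CPM over the 24 libraries had a median of 0.77 over the members and of 0.45 over the 13835 genes whose mean count reached 50. CLK1 had an SD of 0.91, larger than that of 93.8% of those genes, and CLK2 had an SD of 0.29, larger than that of 12.4%. The plot of levels by library shows where these ranges came from: for SRSF1, SRSF5, SRSF6, SRSF11, CLK1 and CLK4 the highest library exceeded the lowest by more in each group of the 3 vector-based setups (agoshRNA, gRNA and pre-gRNA) than in either syn-gRNA group. That did not hold for SRSF2, SRSF3, SRSF7 and CLK2.

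None of the 10 genes differed between KD and NTC past the test in any setup. In the 6 libraries of each setup (Wald test of DESeq2, Benjamini-Hochberg adjusted p under 0.05), 0 of 10 members were called, and 0 of 10 had an unadjusted p under 0.05 in DESeq2 or in edgeR without the letter in the model. The share of all tested genes called was 0% in agoshRNA, 0% in gRNA, 0% in pre-gRNA and 0% in syn-gRNA, with 0, 17, 2 and 55 genes at an unadjusted p under 0.05 in DESeq2. KD and NTC libraries overlapped for every member in every setup. The share of all tested genes that overlapped is not given here, so this describes the members alone.

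The members' log2 fold changes of KD over NTC ran from -0.22 to 0.15 in agoshRNA, from -0.17 to 0.09 in gRNA, from -0.05 to 0.22 in pre-gRNA and from -0.14 to 0.17 in syn-gRNA. Their medians were -0.09, -0.08, 0.15 and 0.08 in that order, beside medians over all tested genes of 0.06, 0.02, 0.01 and 0.0003. The SEs were 0.37 to 0.85 in agoshRNA, 0.31 to 0.55 in gRNA, 0.33 to 0.57 in pre-gRNA and 0.13 to 0.22 in syn-gRNA, so that the syn-gRNA setup gave the tightest estimates. The authors' deposited tables also gave an adjusted p of 1 for each member in each setup, with log2 fold changes from -0.23 to 0.24.

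Values of 1 SR gene and 1 kinase show how KD and NTC libraries mixed. SRSF6, a classical SR protein with a pair of RNA recognition motifs, had 189.5, 212.5 and 234.9 CPM in the syn-gRNA KD libraries and 181.6, 188.7 and 192.1 CPM in the NTC libraries. The KD libraries lay higher on average, the lowest KD library lay below the highest NTC library, and the log2 fold change was 0.17 ± 0.13 (SE; DESeq2 adjusted p = 1). CLK1 had 18.6, 88.6 and 135.4 CPM in the agoshRNA KD libraries and 26.8, 109 and 113 CPM in the NTC libraries, a log2 fold change of 0.01 ± 0.84 (SE; DESeq2 adjusted p = 1). In both arms 1 library was low and the other 2 were high.

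With the letter as a block the SEs of the members fell to between 0.08 and 0.22, and still no member was called in any setup. The lowest adjusted p of DESeq2 with the block was 0.831, in pre-gRNA, where SRSF1 had a log2 fold change of 0.21 ± 0.10 (SE). Its unadjusted p was 0.0309, the only one of a member under 0.05 with the block in any setup, where 5.40% of all genes tested in pre-gRNA were. In pre-gRNA 5 members (SRSF1, SRSF5, SRSF6, SRSF11 and CLK1) were higher in KD than in NTC under all 3 letters, against 19.5% of all tested genes, and 0 were lower, against 16.9%. In syn-gRNA 4 were higher (SRSF2, SRSF3, SRSF6 and SRSF7), against 12.9%, and CLK2 was lower, against 11.3%. In agoshRNA 0 were higher, against 10.5%, and SRSF3 was lower, against 11.3%. In gRNA 0 were higher, against 7.04%, and SRSF7 was lower, against 15.8%. The difference of the KD effect between setups was called for 0 members in any of the 6 pairs of setups (DESeq2 model of all 24 libraries; 0% of all tested genes). The widest difference among the members was for SRSF5, whose KD effect in agoshRNA minus that in pre-gRNA was -0.38 ± 0.66 (SE, log2), and the smallest unadjusted p over the members and pairs was 0.458.

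**Figure D1:**
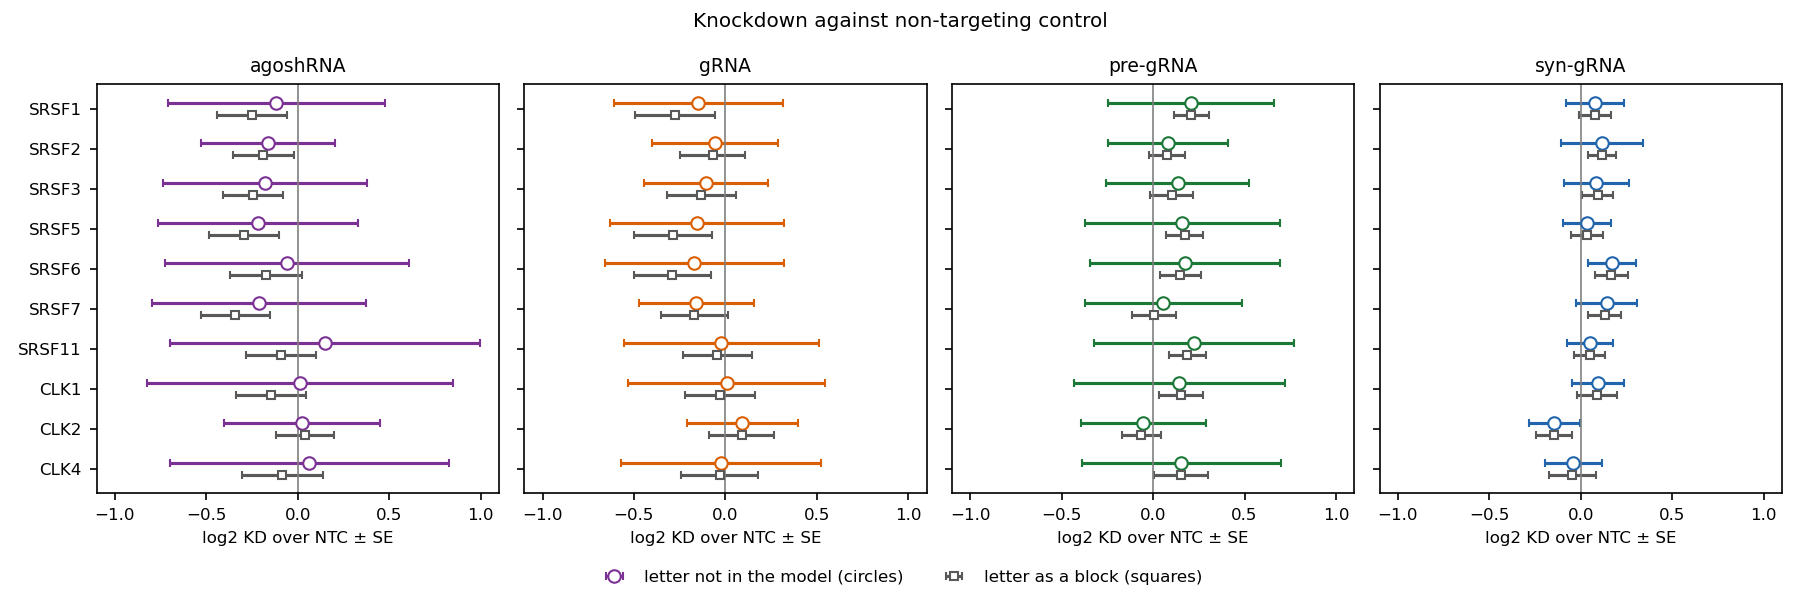
Log2 fold change of KD over NTC (± SE, n = 3 against 3 libraries) for each gene, 1 panel per setup; circles are fits without the letter and squares fits with the letter as a block. Circles range from -0.22 to 0.22 and no point is called in either fit.

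The letter in the column name separated libraries where the arm did not. Adding letter to a model of arm within each setup (likelihood-ratio test of DESeq2, adjusted p under 0.05) called 10 of 10 members in agoshRNA, where 62.7% of all tested genes were called. It called 7 of 10 in gRNA, where 41.9% were, and 10 of 10 in pre-gRNA, where 67.5% were. In syn-gRNA it called 4 of 10, SRSF1, SRSF2, SRSF3 and SRSF7, where 9.86% were. SRSF3, SRSF7 and CLK2 were the members not called in gRNA. Without NTC A of gRNA, SRSF3 (adjusted p = 0.000473) and SRSF7 (adjusted p = 0.0174) were called there too. Letter called a large share of all genes in the vector-based setups, and the members' counts are to be read against those shares.

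In the vector-based setups CLK1, CLK4 and SRSF11 differed most between letters, and all 3 in the same direction in each. In pre-gRNA SRSF5 was level with CLK4, at 1.48 each (log2). CLK1 had 18.6 CPM in KD and 26.8 in NTC under letter A of agoshRNA, 135.4 and 109 under B, and 88.6 and 113 under C. Letter A was low in both arms, with no overlap with B or C, and B exceeded A by 2.71 ± 0.24 (SE, log2), or 6.56-fold (DESeq2 adjusted p = 3.81e-25). In gRNA CLK1 had 26.2 CPM in KD and 37.3 in NTC under A, 81.8 and 73.3 under B, and 101 and 105 under C, so that C exceeded A by 1.67 ± 0.23 (SE, log2; DESeq2 adjusted p = 2.5e-10). In pre-gRNA it was letter B that was low: CLK1 had 62.0 CPM in KD and 46.6 in NTC under A, 27.2 and 26.2 under B, and 109 and 103 under C. There C exceeded B by 1.64 ± 0.15 (SE, log2; DESeq2 adjusted p = 5.41e-28).

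CLK4, which had the fewest counts of the members (103 to 647 per library), followed CLK1. Under letter A of agoshRNA it had 7.50 CPM in KD and 9.96 in NTC, under B 41.9 and 32.5, and under C 21.2 and 27.2. In both arms A was lowest and B highest, and B exceeded A by 2.37 ± 0.27 (SE, log2; DESeq2 adjusted p = 7.6e-15). The log2 difference of CLK4 was 1.73 ± 0.26 between C and A in gRNA and 1.48 ± 0.19 between C and B in pre-gRNA.

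SRSF11 had the widest letter difference of the members. It had 89.5 CPM in KD and 124.9 in NTC under letter A of agoshRNA, 726.9 and 531.8 under B, and 305.5 and 386.1 under C. B was thus the highest letter in both arms and A the lowest, and B exceeded A by 2.83 ± 0.23 (SE, log2), or 7.12-fold (DESeq2 adjusted p = 1.55e-26). In gRNA C exceeded A by 1.66 ± 0.23, and in pre-gRNA C exceeded B by 1.53 ± 0.12 (SE, log2).

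In the fits the classical SR genes differed in the same direction as CLK1 between these letters, by less, except for SRSF2 in gRNA and pre-gRNA. Between B and A of agoshRNA SRSF6 differed by 1.87 ± 0.24, SRSF1 by 1.49 ± 0.23, SRSF5 by 1.29 ± 0.24, SRSF3 by 1.21 ± 0.20, SRSF7 by 1.17 ± 0.23 and SRSF2 by 0.51 ± 0.20 (log2 ± SE). Of these SRSF2 had the weakest call (DESeq2 adjusted p = 0.0402), which was lost with TMM factors (adjusted p = 0.183), with edgeR (adjusted p = 0.186) and without any of 5 of the 6 agoshRNA libraries, the exception being NTC B. Between C and A of gRNA SRSF6 differed by 1.25 ± 0.26, SRSF5 by 1.12 ± 0.26, SRSF1 by 0.80 ± 0.27, SRSF3 by 0.485 ± 0.23 and SRSF7 by 0.38 ± 0.22, while SRSF2 was lower in C by -0.25 ± 0.22 and C was its lowest letter in both arms. Between C and B of pre-gRNA SRSF5 differed by 1.48 ± 0.12, SRSF6 by 1.40 ± 0.14, SRSF1 by 1.07 ± 0.12, SRSF7 by 0.77 ± 0.15 and SRSF3 by 0.64 ± 0.14 (its letter call was lost without KD B, adjusted p = 0.0565), while SRSF2 was lower in C by -0.16 ± 0.12. That difference of SRSF2 held only after scaling by size factors. In CPM C was above B, at 170.9 against 158.8 in KD and 174.1 against 145.4 in NTC. As for SRSF7, the highest letter of SRSF2 was A in both arms, with 244.9 CPM in KD and 209.7 in NTC. Its call in pre-gRNA (adjusted p = 0.039) was lost without KD A, KD C, NTC A or NTC C, and that in gRNA (adjusted p = 0.0482) with edgeR, with TMM factors, with a filter at 50 counts and without KD B, KD C, NTC B or NTC C.

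In the vector-based setups CLK2 ran against CLK1 and CLK4, while in syn-gRNA letter A was the highest for all 3 kinases in the fit and none was called. It had 156.9 CPM in KD and 164.0 in NTC under letter A of agoshRNA, 82.7 and 78.7 under B, and 87.7 and 86.7 under C. Letter A, the lowest for CLK1, was the highest for CLK2 in both arms with no overlap, and B was below A by -0.73 ± 0.19 (SE, log2; DESeq2 adjusted p = 0.000189). That call was lost without KD A (adjusted p = 0.0682) or without NTC A (adjusted p = 0.147). In gRNA CLK2 was highest under A in both arms, at 132.0 and 138.7 CPM, and the letter was not called (DESeq2 adjusted p = 0.405). In pre-gRNA C was below B by -0.42 ± 0.13 (SE, log2; DESeq2 adjusted p = 0.00946) after scaling by size factors, but in CPM the NTC library of C (102.6) was above that of B (98.1). That call was lost without KD B, KD C or NTC C, with adjusted p of 0.157, 0.325 and 0.267.

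In syn-gRNA the letters lay closer together for most members, and SRSF2 differed most. It had 377.8 CPM in KD and 357.1 in NTC under letter A, 571.6 and 523.6 under B, and 648.6 and 579.4 under C. A was lowest in both arms, and C exceeded A by 0.83 ± 0.10 (SE, log2; DESeq2 adjusted p = 1.61e-15). C also exceeded A by 0.55 ± 0.10 for SRSF3, 0.43 ± 0.11 for SRSF7 and 0.39 ± 0.11 for SRSF1 (log2 ± SE). SRSF11 and the 3 kinases were not called, and CLK1 differed by at most 0.15 ± 0.13 between letters (DESeq2 adjusted p = 0.793). SRSF2 was called without each library in turn. SRSF3 was not called without NTC A, and neither SRSF1 nor SRSF7 was called without any of KD A, KD B, KD C, NTC A or NTC B taken singly.

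Over the members the median log2 difference between the highest and the lowest letter was 1.39 in agoshRNA, 1.15 in gRNA, 1.24 in pre-gRNA and 0.22 in syn-gRNA. Over all genes whose mean count reached 50 the median was 1.02, 0.76, 1.01 and 0.28. By direction, 9 of 10 were higher in B than in A of agoshRNA, where 48.4% of all tested genes were, and 8 of 10 were higher in C than in B of pre-gRNA, where 49.7% were. Within a group the highest library exceeded the lowest by a median of 2.68-fold over members and groups of the vector-based setups and of 1.28-fold in syn-gRNA. The order of the 3 letters was the same in KD and NTC for 5, 8, 8 and 6 of the 10 members in agoshRNA, gRNA, pre-gRNA and syn-gRNA, against 67.0, 52.8, 68.0 and 30.6% of all tested genes. Scaling by size factors in place of total counts shifted single libraries by between -0.18 and 0.29 on the log2 scale and changed the sign of 0 of the members' differences between the highest and lowest letter. Other pairs of letters were not in that count. Between C and B of pre-gRNA, SRSF2 was lower in C after size factors but higher in C by CPM in both arms.

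Other measures moved with the letters. MALAT1, a non-coding RNA held in nuclear speckles, had 81.2 CPM in KD and 107.7 in NTC under A of agoshRNA and 1584 and 1257 under B, and ran from 81.2 to 2995 CPM over all libraries. NEAT1, the scaffold of paraspeckles, ran from 40.1 to 432.5 CPM and the cytoplasmic message GAPDH from 3715 to 9211 CPM. These ranges span setups as well as letters. In agoshRNA GAPDH was higher in A than in B in KD (6275 against 5480 CPM) but lower in NTC (5571 against 6373 CPM). Of 8 housekeeping genes the letter called 5 in agoshRNA, where 62.7% of all tested genes were called. Of those, 4 were higher in B than in A and 1 was lower. GC content moved with the letters as well: across 13674 to 13676 genes the log2 difference between B and A of agoshRNA had a Spearman correlation of -0.82 with the GC content of the transcripts, that between C and A of gRNA -0.81 and that between C and B of pre-gRNA -0.78. In syn-gRNA the correlation was 0.40 between B and A, 0.15 between C and A and -0.51 between C and B. Genes are not replicates, and these correlations are descriptions. Median GC was 40% over the members and 48.4% over coding genes, with 35.7% in CLK1, 36.2% in CLK4, 36.6% in SRSF11, 45.6% in SRSF2 and 52.3% in CLK2. The part of GC content, and of nuclear RNA, in the letter differences was not tested.

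The ratio of CLK1 to CLK2 counts gave the contrast between the kinases in each library without any scaling. It was 0.12 in KD and 0.16 in NTC under letter A of agoshRNA, 1.64 and 1.39 under B, and 1.01 and 1.30 under C. In pre-gRNA it was 0.25 and 0.27 under B and 1.14 and 1.01 under C, and in syn-gRNA it lay between 1.04 and 1.48 in all 6 libraries. From lowest to highest library the ratio changed 13.8-fold, while the ratio of CLK1 to CLK4 changed 1.82-fold, from 2.30 to 4.19. The ratio of CLK1 to CLK4 thus varied less than that of CLK1 to CLK2, but it was not fixed. In agoshRNA it was 2.476 in KD and 2.695 in NTC under A, and 4.19 and 4.143 under C.

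The setups were then compared within each arm, in the DESeq2 model of all 24 libraries. Setup, delivery and any processing in separate runs cannot be told apart in these comparisons. The agoshRNA, gRNA and pre-gRNA setups gave no called member in any of their 6 comparisons. The share of all tested genes called was 0.0496% for gRNA and 0.0347% for pre-gRNA against agoshRNA and 0% for pre-gRNA against gRNA in NTC, and 0.0446%, 0.0446% and 0% in KD.

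SRSF2 was higher in syn-gRNA than in each other setup, in both arms. It had 357.1, 523.6 and 579.4 CPM in the NTC libraries of syn-gRNA, and in NTC 197.3, 208.7 and 212.8 in agoshRNA, 181.5, 238.6 and 249.9 in gRNA, and 145.4, 174.1 and 209.7 in pre-gRNA. Each syn-gRNA library was above each library of the other setups. SRSF2 exceeded agoshRNA by 1.25 ± 0.28 (DESeq2 adjusted p = 0.00311), gRNA by 1.27 ± 0.28 (adjusted p = 0.00357) and pre-gRNA by 1.51 ± 0.28 (adjusted p = 7.15e-05), as log2 ± SE. In KD it had 377.8, 571.6 and 648.6 CPM in syn-gRNA and 144.6 to 257.5 CPM in the 9 libraries of the other setups, and the differences were 1.55 ± 0.28, 1.46 ± 0.28 and 1.56 ± 0.28 (DESeq2 adjusted p = 6.4e-05, 0.00023 and 2.87e-05). The 3 comparisons of an arm share the syn-gRNA libraries, so their values are not independent.

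The calls in NTC depended on the tool and on single libraries. By edgeR the adjusted p of SRSF2 was 0.0696 against agoshRNA, 0.0791 against gRNA and 0.0198 against pre-gRNA in NTC, and 0.0206, 0.0393 and 0.0137 in KD. Without NTC A of agoshRNA the DESeq2 adjusted p against agoshRNA was 0.0618, and without NTC C of gRNA that against gRNA was 0.0862. Without NTC B or NTC C of syn-gRNA those against agoshRNA were 0.0761 and 0.112, and those against gRNA 0.105 and 0.149.

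SRSF1 was called as well against pre-gRNA in both arms. It had 724.7, 848.7 and 856.9 CPM in the NTC libraries of syn-gRNA and 133.0, 282.3 and 370.1 in those of pre-gRNA, and 782.3, 798.4 and 1008 CPM against 155.2, 370.3 and 398.8 in KD. The lowest syn-gRNA library was above the highest pre-gRNA library in each arm. The log2 difference was 1.72 ± 0.45 (SE; DESeq2 adjusted p = 0.0116) in NTC and 1.60 ± 0.45 (adjusted p = 0.023) in KD, and by edgeR the adjusted p was 0.0704 and 0.093. In NTC the DESeq2 call was lost without pre-gRNA A or B or syn-gRNA B or C (adjusted p of 0.0797, 0.106, 0.113 and 0.108). In KD it was lost without pre-gRNA A or B or without any 1 of the 3 syn-gRNA libraries (adjusted p of 0.0833, 0.154, 0.0524, 0.115 and 0.221).

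Counted over the members, 1, 1 and 2 of 10 were called and higher in syn-gRNA NTC against agoshRNA, gRNA and pre-gRNA. All tested genes were called in 1.84, 1.32 and 3.25% of cases there, and called and higher in 1.03, 0.848 and 2.08%. In KD 1, 1 and 2 of 10 were called and higher, with 3.14, 1.58 and 2.52% of all tested genes called and 1.73, 1.14 and 1.87% called and higher. Without agoshRNA KD B, the high library of that group, 5 of 10 were called in KD against agoshRNA, namely SRSF1, SRSF2, SRSF3, SRSF6 and SRSF7. Without gRNA KD B, SRSF1 was called beside SRSF2 against gRNA in KD (adjusted p = 0.0448). Without pre-gRNA NTC C, SRSF5 was called as well against pre-gRNA in NTC (adjusted p = 0.0211). The shares above are from the fit of all 24 libraries. Shares of all tested genes called with a library left out are not given here, so these counts have no background beside them.

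In size, 9 of 10 members were higher in syn-gRNA in each of the 6 comparisons, and CLK2 was the exception in each. The median log2 difference of the members was 0.68, 0.66 and 1.02 in NTC and 0.89, 0.86 and 0.92 in KD against agoshRNA, gRNA and pre-gRNA, beside medians over all tested genes of 0.01, -0.02, -0.04, -0.02, -0.04 and -0.06. All 3 syn-gRNA libraries were above all 3 of the other setup for 6, 7 and 8 members in NTC, against 11.1, 8.47 and 11.7% of all tested genes, and for 6, 6 and 5 members in KD, against 9.33, 9.59 and 9.59%. For SRSF1, SRSF2, SRSF5 and SRSF6 the 6 syn-gRNA libraries were above all 18 others, as they were for 2.19% of all tested genes. SRSF5 had 509.4 to 621.5 CPM in the syn-gRNA libraries and 103.9 to 479.6 CPM in the others, and SRSF6 had 181.6 to 234.9 CPM against 38.4 to 153.5.

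The kinases did not stand above all 18 other libraries, nor did SRSF3, SRSF7 and SRSF11. In NTC, but not in KD, all syn-gRNA libraries of CLK1 were above those of gRNA and of pre-gRNA, without a call. The same held for CLK4 against agoshRNA. CLK1 had 100.4 to 138.7 CPM in the 6 syn-gRNA libraries and 18.6 to 135.4 in the other 18, and its log2 differences ran from 0.43 ± 0.64 (NTC, agoshRNA) to 1.06 ± 0.64 (NTC, pre-gRNA; DESeq2 adjusted p = 0.379). CLK4 had 31.96 to 44.8 CPM in syn-gRNA and 7.50 to 45.4 in the others. CLK2 had 82.5 to 117.9 CPM in syn-gRNA and 78.7 to 164.0 in the others, with differences from -0.36 ± 0.25 to -0.07 ± 0.25 (log2 ± SE), none of them called, and only against gRNA in KD did its libraries not overlap, all 3 of syn-gRNA being lower. For CLK1, CLK4 and SRSF11 the syn-gRNA libraries lay beside the high letters of the other setups, and the libraries of the low letters lay below them.

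Of 3 nuclear RNAs, NEAT1 was called and higher in syn-gRNA against pre-gRNA in both arms and MALAT1 in KD, and none was called against agoshRNA or gRNA. MALAT1 had 1277 to 2995 CPM in the syn-gRNA libraries and 81.2 to 1584 in the others, NEAT1 had 187.7 to 432.5 against 40.1 to 305.1, and KCNQ1OT1 had 42.2 to 64.2 against 3.57 to 37.0. The Spearman correlation between GC content and the log2 difference, across genes, ran from -0.26 (NTC, gRNA) to -0.60 (NTC, pre-gRNA). Their part in the SRSF1 and SRSF2 differences was not tested.

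The other genes of the splicing machinery give the setting. Among 12 other SR and SR-related genes, only TRA2B, whose product is a splicing activator with its own poison exon, was called, higher in syn-gRNA in 5 of the 6 comparisons, by 1.03 ± 0.31 to 1.28 ± 0.31 (log2 ± SE), the exception being agoshRNA in NTC. No other gene of that list was called in the 6 comparisons, and its medians were 0.36, 0.19 and 0.60 in NTC and 0.45, 0.34 and 0.40 in KD. None of 8 other kinases and import receptors of SR proteins (SRPK and DYRK genes among them) was called in the 6 comparisons. Among 22 hnRNP genes, whose products often oppose SR proteins, HNRNPH1 was called once, higher than pre-gRNA in NTC by 1.79 ± 0.56 (DESeq2 adjusted p = 0.049). Among 21 other genes described with retained introns or poison exons, CCNL1, a cyclin of speckles, was called against pre-gRNA in both arms, at 2.61 ± 0.83 and 2.72 ± 0.83. Among 32 core spliceosome genes PRPF4, a protein of the U4/U6 particle, was called and lower in 5 of the 6 comparisons, by -0.70 ± 0.20 to -1.09 ± 0.20 (log2 ± SE). None of 10 NMD factors was called, and no gene of any of these lists was called for KD against NTC in any setup.

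Between letters these lists split by gene. In agoshRNA, where 62.7% of all tested genes were called, the letter called 6 of 12 other SR genes, 7 of 8 SR kinases and import receptors, 17 of 22 hnRNP genes, 19 of 21 genes with retained introns or poison exons, 24 of 32 spliceosome genes and 8 of 10 NMD factors. Of those called, 6, 5, 13, 17, 11 and 4 were higher in B than in A. The median log2 difference between B and A was 0.69, 1.43, 1.06, 1.95, -0.27 and -0.23 in that order, beside 1.39 for the members and -0.07 for all tested genes. The called gene with the largest difference in each list was PNN, a speckle protein (3.09), SRPK1, an SR protein kinase (2.58), PTBP2, a neuronal splicing repressor (3.35), CCNL1 (3.93), SF3B1, a core protein of the U2 particle (3.24), and SMG1, the kinase of the NMD factor UPF1 (3.44). In pre-gRNA, where 67.5% of all tested genes were called, the letter called 10, 7, 22, 20, 27 and 9 genes of these lists, and of those 8, 5, 14, 18, 5 and 6 were higher in C than in B. In both setups the median of the genes with retained introns or poison exons had the sign of CLK1, and that of the core spliceosome list had the opposite sign.

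Genes other than the members followed them closely over the 24 libraries. The 5 genes most like CLK1 by Pearson correlation of log2 CPM were UFM1, UGCG, RBM39, DNAJC25 and RUFY3, all at 0.99, and those most like SRSF3 were DHX9 (0.97), PBLD (0.97), WDR60 (0.96), RP11-4L24.4 (0.96) and TEX10 (0.96). The 5 most like the mean of the members were HNRNPU, NPTN-IT1 and MEIS1 at 0.99 and CCNG2 and BUB3 at 0.98. Only members were left out of these rankings, and HNRNPU is in the hnRNP list above. Among the members SRSF11 correlated at 0.99 with CLK4 and 0.98 with CLK1, and CLK1 at -0.70 with CLK2. The points share the setups and letters described above, so these values describe the libraries and carry no test.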

How the data were processed

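The members and gene lists were chosen with earlier results of these data known. The authors deposited raw read counts per gene in 4 tables with identical counts. Reads were trimmed with Trim Galore, aligned to hg19 with STAR 2.7.3a and counted with featureCounts, per the submitters' processing notes; the annotation release and counting settings are not given in the sources used here. The log2 fold changes and p-values in the deposited tables are the authors', from DESeq2 per the series' design text. The 24 columns of normalized counts per table were not used.

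Groups came from the labels and column names; columns named sgRNA were taken as syn-gRNA from the description label. A gene was tested if 3 or more of the fitted libraries held 10 or more counts, with DESeq2 1.42.0 in R 4.3.3 (two-sided Wald test; likelihood-ratio test for letter), the tool the series names. Benjamini-Hochberg adjusted p-values under 0.05, over all genes tested, were called. CPM are counts scaled to a library total of 1000000, and log2 CPM used a pseudocount of 0.5. Alternatives were edgeR 4.0.16, TMM factors, no filter, a filter at 50 counts, the 6 libraries of the groups compared alone, the letter as a block and leaving out each library. Same-letter KD and NTC libraries deviated together in every setup (correlations of 0.36 to 0.97). The main fits of KD against NTC, and of its difference between setups, left the letter out. Only the alternative with the letter as a block treated same-letter libraries as pairs. From each list, up to 3 called genes per comparison with the largest difference and a mean of at least 50 counts could be named, and the 5 genes most like CLK1, SRSF3 and the members' mean. GENCODE release 29 matched 93.2% of genes. With non-stranded reads, overlapping antisense genes and near-identical copies cannot be told apart. Depth is given in total counts, 10994974 to 16233777 per library.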

Additional observations from a re-analysis of the deposited data

How the results depend on the processing

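KD against NTC called 0 members in each setup under every alternative run, the replicate block by letter included (0 called in each of the 4 setups), and so did the difference of the KD effect between setups. The count of members higher in syn-gRNA changed most. By edgeR it was 0 in NTC against agoshRNA, 0 in NTC against gRNA, 1 in NTC against pre-gRNA and 1 in KD against pre-gRNA, in place of 1, 1, 2 and 2. With only the 6 libraries of the 2 groups it was 2 in NTC against gRNA (SRSF1 and SRSF2) and 4 in NTC against pre-gRNA (SRSF1, SRSF2, SRSF5 and SRSF6), and 3 in KD against pre-gRNA (SRSF1, SRSF2 and SRSF5). Leaving out 1 library at a time gave 0 to 1 in NTC against agoshRNA, 0 to 1 in NTC against gRNA, 1 to 3 in NTC against pre-gRNA, 1 to 5 in KD against agoshRNA, 1 to 2 in KD against gRNA and 1 to 2 in KD against pre-gRNA. Where that left 2 libraries in a group, the spread was shared with the other groups. Calls by letter ran from 8 to 10 members in agoshRNA, 6 to 9 in gRNA, 8 to 10 in pre-gRNA and 1 to 4 in syn-gRNA when 1 library was left out, and by edgeR from 10, 7, 10 and 4 to 9, 6, 10 and 4. Shares of all tested genes called under these alternatives are not given here, so the changed counts describe the members alone. The cause of these changes was not tested. Of the 5 genes most like CLK1, SRSF3 and the members' mean, 1, 1 and 2 were shared with a ranking by Spearman correlation and 1, 2 and 3 with one over the NTC libraries.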
